A study of Mus musculus with 8 samples.

Results

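Transcripts for the core of the vascular basement membrane were followed in endothelial cells sorted from mouse embryos. The 10 genes were chosen by name and encode the main collagen IV chains (Col4a1, Col4a2), 4 laminin chains (Lama4, Lama5, Lamb1, Lamc1), both nidogens (Nid1, Nid2), perlecan (Hspg2) and collagen XVIII (Col18a1). All 10 were found among the 23337 gene symbols of the table, and all 10 passed the filter of a mean of at least 10 normalised reads. Without tamoxifen their summed level was 28321 to 45300 normalised reads, and it was 53977, 60879 and 20998 in the 3 tamoxifen libraries. The tamoxifen libraries therefore lay on both sides of the range without tamoxifen, and 0 of the 10 genes passed the test between groups.

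The embryos carried the transgenes Cdh5-CreERT2(PAC), a tamoxifen-inducible Cre recombinase under an endothelial promoter, and Rosa26fsTRAP, a Cre-dependent reporter allele, in both groups, while the genotype label of every sample reads wild type. Tamoxifen was given to the pregnant female by gavage at E12.5 (embryonic day) in 1 group and withheld in the other, and cells were sorted by flow cytometry from whole embryos at E15.5. No group separates tamoxifen from Cre activation, and nothing in the labels ties each sample to its own embryo or litter. The p-values thus measure the spread among these samples only, and it may be technical. The labels list 4 samples per group. The table's header has 1 field fewer than its data lines, so its names can be read over the first or the last 8 value columns. The comparison used the 3 columns that carry a name without tamoxifen under both readings (no_tamoxifen_1 to no_tamoxifen_3) and the 3 that carry a tamoxifen name under both (tamoxifen_1 to tamoxifen_3), numbered in table order. Column 6, whose group depends on the reading, and column 10, which is a tamoxifen library or unnamed, are given apart.

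A basement membrane is a thin sheet of extracellular matrix that lies under endothelium and epithelium and around muscle cells. Laminin heterotrimers of an alpha, a beta and a gamma chain polymerise at the cell surface and bind integrins and dystroglycan. Collagen IV trimers form a second, covalently linked network, nidogens and perlecan tie the networks together, and collagen XVIII releases the antiangiogenic fragment endostatin. Endothelial cells and mural cells both deposit this matrix around growing vessels, and fibroblasts, muscle and epithelium make it too.

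The 6 libraries held 12212472 to 19908404 reads in genes, of which 8436939 to 13283464 were outside the ribosomal RNA precursor Rn45s. All 15 endothelial markers were detected, with the cadherin gene Cdh5 at 2948 to 5020 normalised reads without tamoxifen and at 5201, 4778 and 1978 with it. Macrophage markers were abundant as well, with the receptor gene Csf1r at 7464 to 12229, so a transcript in these libraries cannot be assigned to endothelial cells. The summed level of the 12 mesenchymal and fibroblast markers ranged from 2023 to 4344 in the group without tamoxifen, and the tamoxifen libraries had 56474, 87309 and 4497. In bulk samples fewer cells of a type and less RNA per cell cannot be told apart.

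Collagen IV had the highest level per length of all the members. Col4a1 and Col4a2, which encode the alpha chains of the collagen IV trimer found in nearly all basement membranes, lie head to head on chromosome 8 of GRCm38. Col4a1 runs on the minus strand from 11312826 down to 11198423 and Col4a2 on the plus strand from 11312805 to 11449287. Their annotated first exons share 22 bases on opposite strands. The RefSeq sequence of GRCm38.p6 at chr8:11312801-11312830, plus strand, is shown because this arrangement places both start sites within 1 short stretch; capitals mark the 22 shared bases.
Col4a1 and Col4a2 start sites: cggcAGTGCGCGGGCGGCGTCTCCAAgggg

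Col4a1 was measured at 11943, 9937 and 6945 normalised reads in the libraries without tamoxifen and at 14947, 15838 and 5316 with it. Tamoxifen_1 and tamoxifen_2 were above every library without tamoxifen and tamoxifen_3 was below every one. Col4a2 was measured at 7444, 5915 and 4427 without tamoxifen and at 8538, 9640 and 3177 with it, with the same 2 libraries high and the same 1 low. The group means of Col4a1 were 9609 ± 2515 and 12034 ± 5835 (SD, n = 3 each), a fold change of 1.15 with a 95% interval of 0.612 to 2.17 (limma adjusted p = 0.902). For Col4a2 they were 5928 ± 1508 and 7118 ± 3457 (SD, n = 3 each), 1.10-fold with an interval of 0.593 to 2.05 (limma adjusted p = 0.931). These differences are smaller than the spread between the tamoxifen libraries, which was 2.98-fold for Col4a1 and 3.03-fold for Col4a2 from lowest to highest. The call rule, an adjusted p under 0.05 in limma on log2(value + 1), called 0.0445% of the 13480 genes tested. On recovered reads edgeR called 0.0371% of genes and DESeq2 1.98%, and 0 of the 10 members each.

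**Figure D1:**
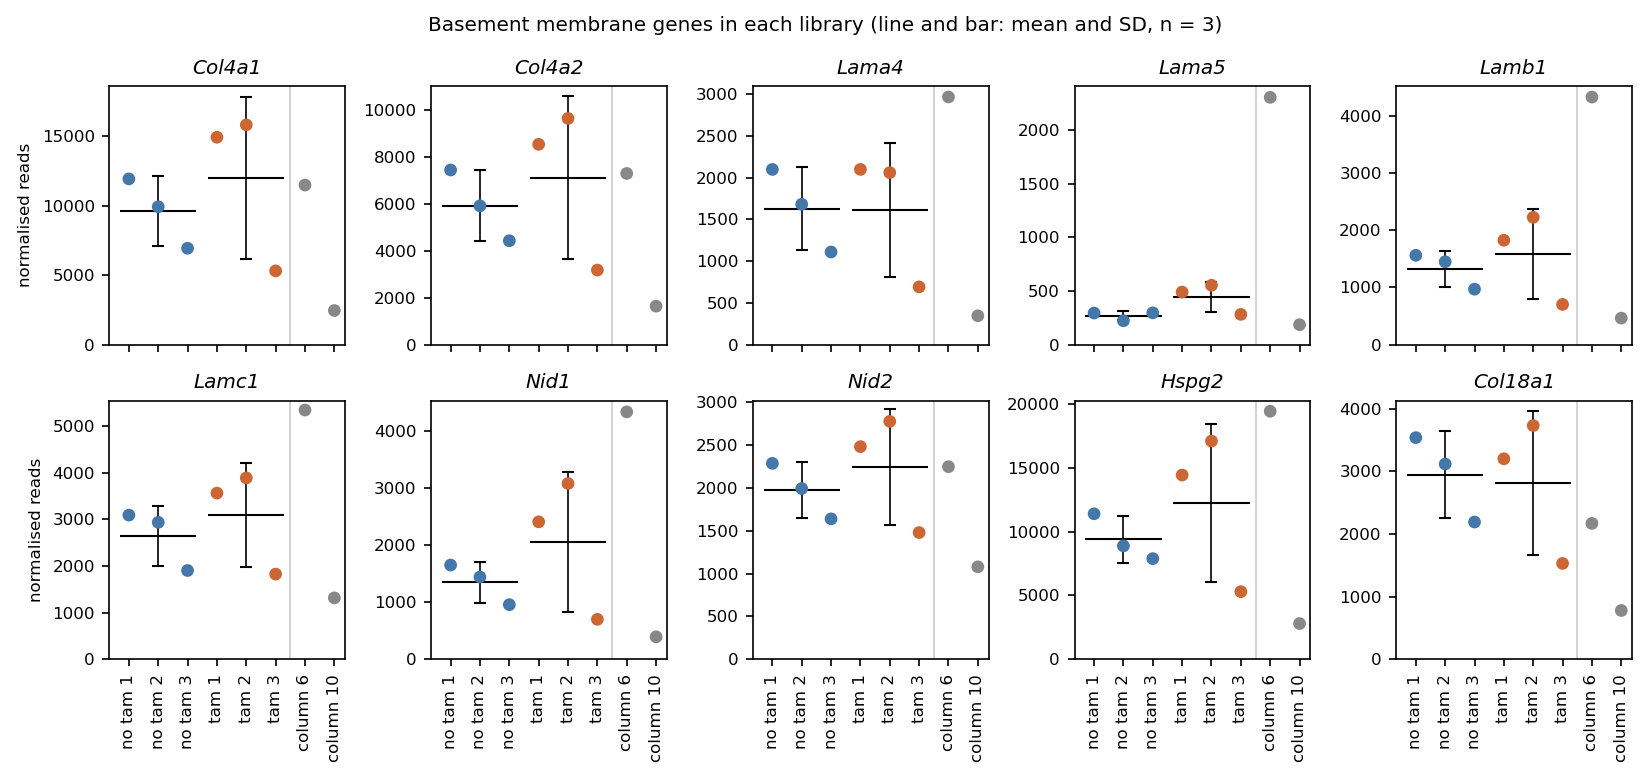
Normalised reads (vertical axis, from 0) of the 10 members in each library, 1 panel per gene; lines and bars give the mean and SD of the 3 libraries per group, and grey points are the columns given apart. For Col4a1 the tamoxifen libraries stand at 14947, 15838 and 5316 around a range of 6945 to 11943 without tamoxifen, and most panels repeat that arrangement.

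Among the laminin chains, Lamb1 and Lamc1 had the same 2 libraries high and 1 low as collagen IV, and Lama4 and Lama5 did not. Lama4 on chromosome 10 (38965515 to 39110188, plus strand) encodes the alpha chain of the laminin that endothelial cells of all vessel types make. It was measured at 2098, 1681 and 1109 normalised reads without tamoxifen and at 2098, 2060 and 692 with it, so only tamoxifen_3 lay clearly outside the other group. Its fold change was 0.914 with a 95% interval of 0.471 to 1.78 (limma adjusted p = 0.945). Lama5 on chromosome 2 (180176373 to 180225859, minus strand) encodes the alpha chain of a laminin known from epithelia, arteries and capillaries with a tight barrier. It was measured at 294, 223 and 296 without tamoxifen and at 490, 553 and 282 with it. The third tamoxifen library fell inside the range without tamoxifen, where those of all 9 other members fell below it. The Lama5 means were 271 ± 42 and 442 ± 142 (SD, n = 3 each), 1.58-fold with an interval of 1.06 to 2.35. That was the only member with an unadjusted p under 0.05 in limma (adjusted p = 0.508), against 9.01% of all genes tested.

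Lamb1 and Lamc1 encode the beta and gamma chains that pair with both of these alpha chains. Lamb1 on chromosome 12 (31265234 to 31329644, plus strand) was measured at 1561, 1448 and 969 normalised reads without tamoxifen and at 1824, 2224 and 703 with it. Lamc1 on chromosome 1 (153218922 to 153332786, minus strand) was measured at 3088, 2933 and 1902 without tamoxifen and at 3559, 3884 and 1824 with it. In both genes tamoxifen_1 and tamoxifen_2 were the 2 highest libraries and tamoxifen_3 the lowest. The fold change was 1.09 for Lamb1 (95% interval 0.586 to 2.04, limma adjusted p = 0.941) and 1.14 for Lamc1 (0.711 to 1.81, limma adjusted p = 0.882).

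Nidogens, the glycoproteins that link laminin to collagen IV, had the widest and the narrowest range over the tamoxifen libraries, and neither passed the test. Nid1 on chromosome 13 (13437551 to 13512269, plus strand) was measured at 1653, 1443 and 959 normalised reads without tamoxifen and at 2411, 3083 and 701 with it. Its 4.40-fold range over the tamoxifen libraries was the widest of the 10 members, and tamoxifen_2 stood highest. Nid2 on chromosome 14 (19751265 to 19811787, plus strand) was measured at 2287, 1993 and 1639 without tamoxifen and at 2482, 2777 and 1479 with it. Its range over the tamoxifen libraries was the narrowest, 1.88-fold. The fold change was 1.32 for Nid1 (95% interval 0.603 to 2.87, limma adjusted p = 0.835) and 1.11 for Nid2 (0.767 to 1.60, limma adjusted p = 0.875). Nid2 shares 437 exonic bases with Rtraf on the opposite strand, Nid1 143 with Gm48682 and Col4a2 43 with Gm15419. The sources used here do not give whether counting used strand, so how reads of those stretches were assigned or dropped is not known.

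Perlecan and collagen XVIII are the heparan sulfate proteoglycans among the members, which hold growth factors in the matrix. Hspg2 on chromosome 4 (137468769 to 137570630, plus strand) was measured at 11394, 8883 and 7884 normalised reads without tamoxifen and at 14429, 17090 and 5295 with it. Col18a1 on chromosome 10 (77052178 to 77166548, minus strand) was measured at 3537, 3117 and 2190 without tamoxifen and at 3200, 3730 and 1530 with it. Hspg2 thus had 2 tamoxifen libraries above and 1 below every library without tamoxifen, while for Col18a1 tamoxifen_1 lay inside that range. The fold change was 1.18 for Hspg2 (95% interval 0.633 to 2.19, limma adjusted p = 0.885) and 0.911 for Col18a1 (0.548 to 1.51, limma adjusted p = 0.922).

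Over the 10 members 8 log2 fold changes were positive and 2 negative, with a median of 0.17, where the median of all genes tested was -0.02. None of the 10 had groups that did not overlap, which held for 13.9% of genes tested. In 7 of the 10 (Col4a1, Col4a2, Lamb1, Lamc1, Nid1, Nid2, Hspg2) tamoxifen_1 and tamoxifen_2 were above and tamoxifen_3 below every library without tamoxifen, an arrangement noticed after the values were seen and held by 6.23% of genes tested. The median SD of log2(value + 1) over members was 0.37 without tamoxifen and 0.88 with it, against 0.18 and 0.21 over all genes tested.

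The result turned on tamoxifen_3. Without that library 6 of the 10 members were called higher, where 7.22% of genes tested were. These were Nid1 at 2.07-fold (limma adjusted p = 0.00122), Lama5 at 1.93-fold (limma adjusted p = 0.00123), Hspg2 at 1.69-fold (limma adjusted p = 0.0041), Col4a1 at 1.64-fold (limma adjusted p = 0.0156), Col4a2 at 1.56-fold (limma adjusted p = 0.0215) and Lamb1 at 1.55-fold (limma adjusted p = 0.0254). Lamc1, Nid2, Lama4 and Col18a1 had values of 1.44-fold, 1.34-fold, 1.32-fold and 1.20-fold and did not pass (limma adjusted p = 0.0583 to 0.373). When tamoxifen_3 alone stood for the tamoxifen group, a setting added after seeing the data, 9 of the 10 members were negative, from -0.40 for Nid2 to -1.19 for Lama4 on the log2 scale, and 0 passed (limma adjusted p = 0.0545 to 0.963), where 0.467% of genes tested were called lower. That fit assumes that the lone library varies like the others. Lama5 was at 0.07 there. With the mesenchymal marker score as a covariate, 9 members were called lower (limma adjusted p = 1.79e-05 for Lama4 to 0.0487 for Nid2), as were 3.67% of genes tested, and Lama5 was at 0.02. This covariate fit also rests largely on tamoxifen_3. Measured from the no_tamoxifen mean, its log2 score of 0.43 fell inside the no_tamoxifen range, -0.60 to 0.58. Tamoxifen_1 at 3.98 and tamoxifen_2 at 4.44 lay far above that range, so their score cannot be separated from their group. Whether members fall at an equal mesenchymal level is therefore not decided by this fit.

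**Figure D2:**
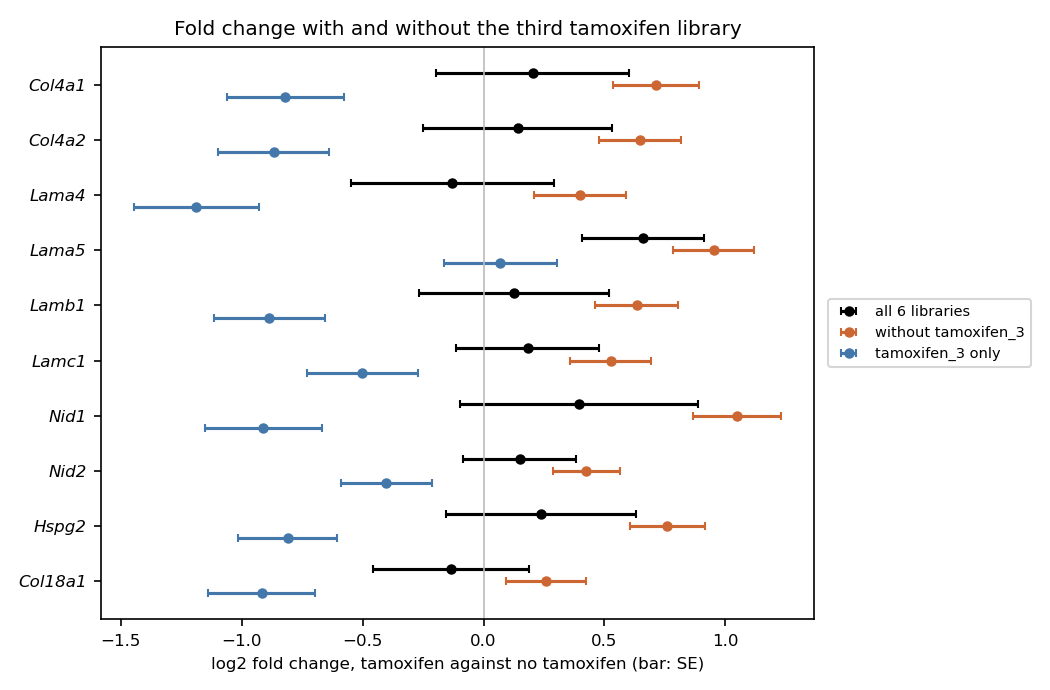
Log2 fold change on the log2(value + 1) scale (horizontal axis; bars are the SE) of each member with all 6 libraries, without tamoxifen_3, and when it alone stands for the tamoxifen group. All 10 values are positive without tamoxifen_3, and 9 are negative with it alone, with Lama5 at 0.07.

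Member levels were set beside the level of endothelial markers in the same library. The pan-endothelial score, the mean of log2(value + 1) over 15 markers such as Cdh5, Pecam1 and Tek, stood at 10.16, 9.99 and 9.56 in the group without tamoxifen and at 10.22, 10.24 and 8.97 in the other. Relative to that score, and to the mean without tamoxifen, Lama4 stood at 0.09, 0.05 and -0.26 on the log2 scale in the 3 tamoxifen libraries and Col18a1 at -0.17, 0.03 and 0.01. Col4a1 stood at 0.35, 0.42 and 0.11 and Hspg2 at 0.32, 0.54 and 0.12. Nid1 was at 0.55, 0.89 and 0.02 and so exceeded the score in tamoxifen_1 and tamoxifen_2 and matched it in tamoxifen_3. Lama5 was at 0.545, 0.699 and 1.001, highest in the library with the lowest score. Lamc1 at 0.143, 0.248 and 0.430 and Nid2 at 0.025, 0.166 and 0.529 were highest in that library too. Scaling to this score shifts the median of all genes from -0.02 to 0.07 on the log2 scale. The members then had fold changes from 0.97 for Col18a1 to 1.68 for Lama5, and none passed in limma (adjusted p = 0.999997 for each). That fit could hardly call a member, because limma draws each variance partly from all genes. The SE of Col4a1 was 0.57, while its scaled values had an SD of 0.09 without tamoxifen. Relative to the score, Col4a1, Lama5, Lamc1 and Hspg2 had all 3 tamoxifen libraries above the others. Their exact permutation p was 0.1, the lowest possible, against 0.2 to 0.7 for the other members. The margin was narrow for Hspg2, with tamoxifen_3 at 0.122 against 0.111 in no_tamoxifen_3. It was narrow for Col4a1 too, with tamoxifen_3 at 0.113 against 0.093 in no_tamoxifen_1. The share of all genes that separate on this scale is not given here, so the separation cannot be called particular to members.

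**Figure D3:**
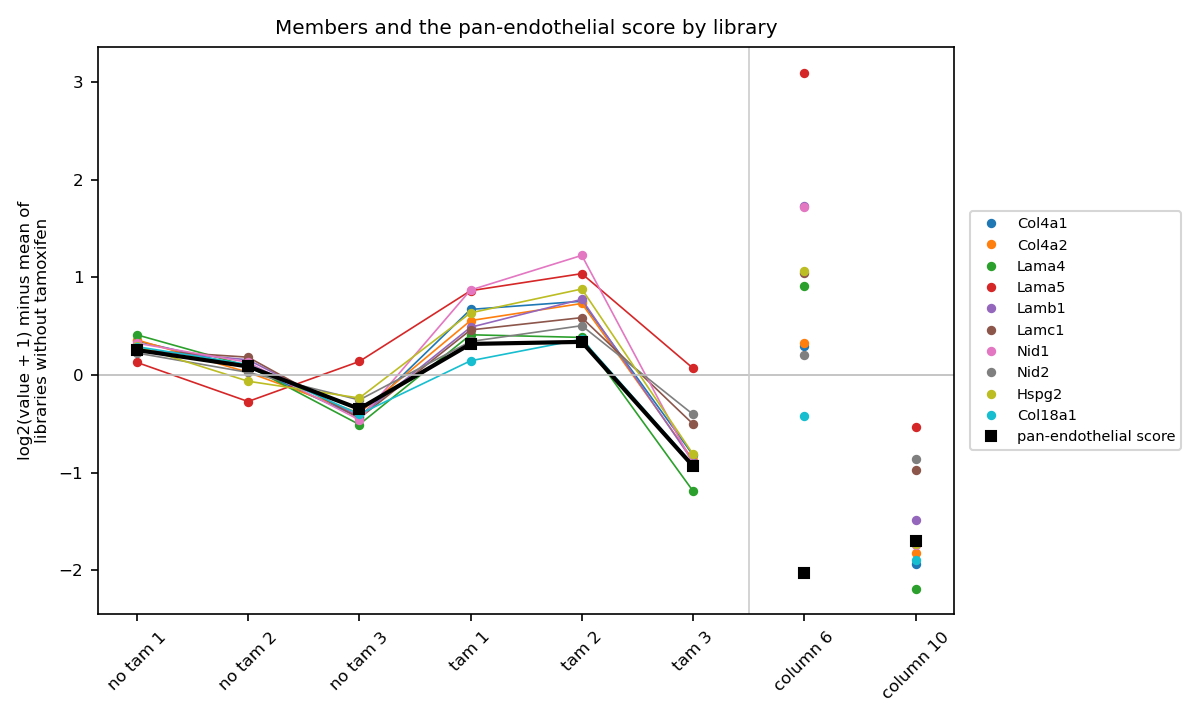
Log2(value + 1) of each member and the pan-endothelial score (black squares), each minus its mean over the libraries without tamoxifen; the horizontal axis lists the libraries, and lines only join the points of 1 gene. In tamoxifen_3 Lama5, Nid2 and Lamc1 lie farthest above the score, in tamoxifen_2 Nid1 does, and in column 6 the score is at -2.03 while 9 of 10 members are above 0.

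Other marker lists were read in the same libraries. All 12 mesenchymal and fibroblast markers were above every library without tamoxifen in tamoxifen_1 and in tamoxifen_2, and 4 of 12 were in tamoxifen_3. The 10 mural markers, of pericytes and smooth muscle, summed to 673 to 1068 normalised reads without tamoxifen and to 2273, 2436 and 782 with it. The 8 cartilage markers summed to 546 to 762 and to 18018, 15459 and 737. The 9 macrophage markers went the other way, at 46579 to 53758 without tamoxifen and at 37096, 35195 and 56143 with it. The 7 epithelial markers, from cells that also make laminin, summed to 158 to 327 and to 269, 273 and 195. The 7 neural and Schwann markers summed to 37.3 to 52.9 and to 88.1, 80.8 and 42.1, and the 7 muscle markers to 14.8 to 28.9 and to 42.0, 38.0 and 24.5. In limma 0 tested genes of these lists passed. Only 1 of the 7 muscle, 2 of the 7 neural and Schwann and 6 of the 7 epithelial markers reached the filter and were tested. No list had a defining marker at 0 in all 6 libraries other than the muscle gene Myf5. The part of any of these lists in the members' levels was not tested.

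Per length, collagen IV and perlecan stood first and Lama5 last. Normalised reads per kilobase of annotated exon without tamoxifen were 1287 ± 337 for Col4a1, 896 ± 228 for Col4a2 and 656 ± 126 for Hspg2 (SD, n = 3 each), and this order held in 6 of 6 libraries. Col18a1 at 420 ± 98, Nid2 at 381 ± 63 and Lamc1 at 319 ± 78 followed. Col18a1 and Nid2 did not keep an order, with Col18a1 above Nid2 in 2 of 6 libraries. Nid1 stood at 195 ± 51, Lama4 at 135 ± 41 and Lamb1 at 134 ± 32, and the last 2 did not differ beyond their spread. Lama5, at 23.8 ± 3.7, was below all other members in every library, so that Lama4 was the more abundant alpha chain of the pair. The exon lengths are those of all annotated isoforms together, so a gene with an unused long isoform is placed too low.

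**Figure D4:**
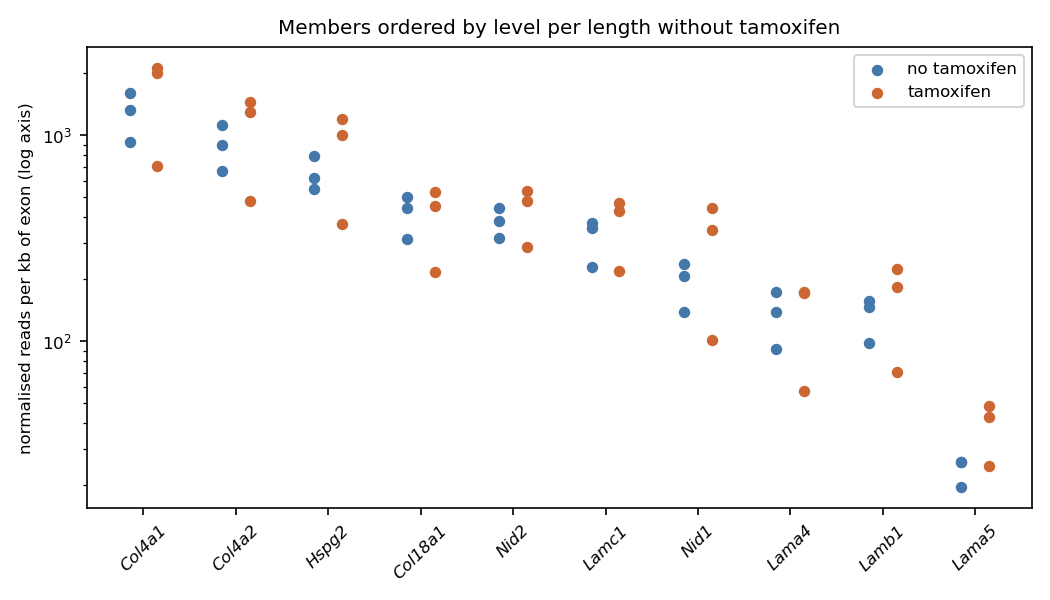
Normalised reads per kilobase of exon (vertical log axis) of the 10 members in the 3 libraries without tamoxifen and the 3 with it, ordered by the mean without tamoxifen. Col4a1 leads at 1287 and Lama5 is last at 23.8, and within most genes the spread between tamoxifen libraries exceeds the distance between group means.

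Ratios between partner genes within a library, in which any scaling of the library cancels, were taken for 5 pairs, and none passed the test. Without tamoxifen the ratio of Col4a1 to Col4a2 was 1.60, 1.68 and 1.57, and in the tamoxifen libraries 1.75, 1.64 and 1.67, while the level of each spanned 2.98-fold and 3.03-fold over the same libraries. Lamb1 to Lamc1 stood at 0.505, 0.494 and 0.509 in the group without tamoxifen and at 0.512, 0.573 and 0.385 in the other, lowest in tamoxifen_3. Lama4 to Lama5 stood at 7.13, 7.55 and 3.75 against 4.28, 3.73 and 2.45. The ratio in no_tamoxifen_3 lay inside the range of the tamoxifen libraries. Nid1 to Nid2 stood at 0.723, 0.724 and 0.585 against 0.971, 1.11 and 0.474. Perlecan to collagen XVIII, Hspg2 to Col18a1, stood at 3.22, 2.85 and 3.60 in the group without tamoxifen and at 4.51, 4.58 and 3.46 in the other. In exact two-sided permutation tests the lowest p was 0.2 (0.5 after Benjamini-Hochberg adjustment over the 5 ratios), and 3 against 3 libraries cannot go below 0.1.

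**Figure D5:**
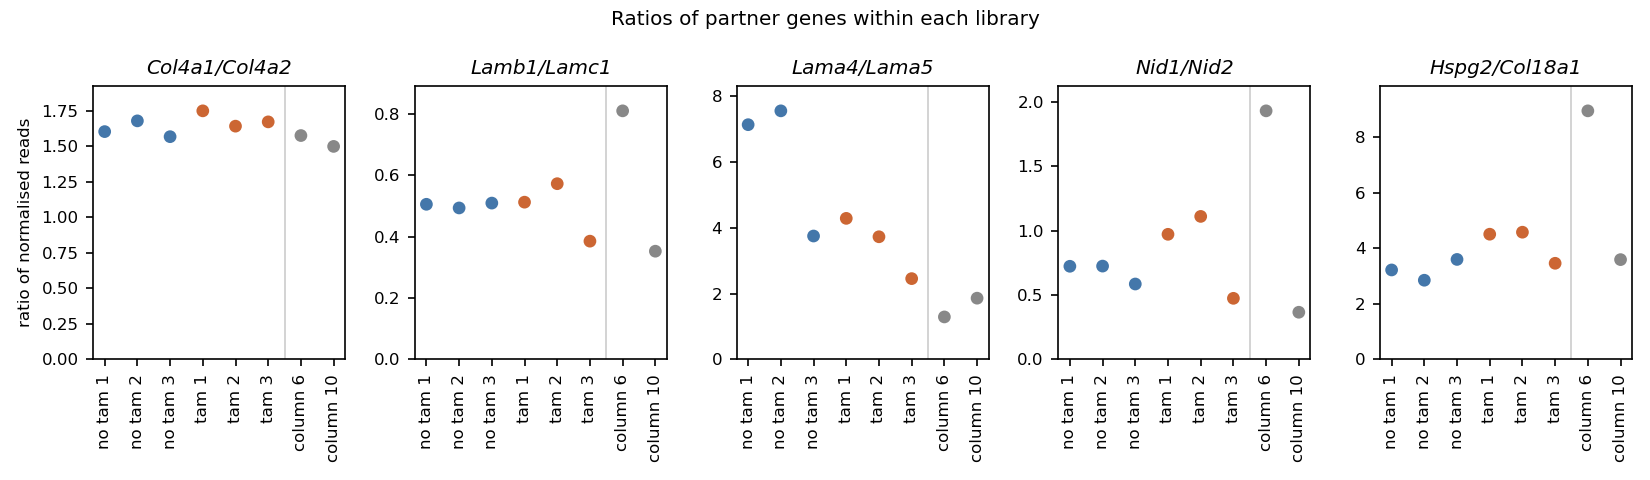
Ratio of normalised reads of 2 partner genes (vertical axis, from 0) in each library, 1 panel per pair. Col4a1/Col4a2 lies between 1.57 and 1.75 in the 6 libraries, while Lama4/Lama5 spans 2.45 to 7.55 and Nid1/Nid2 0.474 to 1.11.

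Among members, the profile over the 6 libraries was most alike for Col4a1 and Col4a2, with a root mean square difference of 0.051 between their centred log2 values. Lamb1 (0.074 from Col4a2) and Hspg2 (0.095 from Col4a2) came next, and the least alike were Lama4 and Lama5 (0.564). Over 10247 other genes the median difference from Col4a1 was 0.628, and all 9 other members were closer than that. The non-member genes closest to Col4a1 were Yap1 (0.056), a transcriptional coactivator of the Hippo pathway, the growth factor gene Igf2 (0.059), Efr3b (0.061), Fam115a (0.067) and the splicing factor gene Rbfox2 (0.067). Closest to Lama4 were the endothelial adhesion gene Esam (0.054), then Hecw2 (0.072), the tetraspanin gene Tspan18 (0.077), Tmem47 (0.077) and the endothelial protocadherin gene Pcdh12 (0.085). Esam is in the pan-endothelial list.

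Promoter sequence was read for the members whose windows RefSeq gives, 7 of 10; Lama4, Lamc1 and Nid2 had none in the table used. The upstream stretches of Hspg2, Lamb1 and Nid1, which had the same 2 libraries high and 1 low as collagen IV, and of Lama5, which did not, are shown up to the first annotated exon on GRCm38.p6, 5′ to 3′ on the gene's strand. Capitals mark the GC box GGGCGG and the CCAAT box in either orientation.
Hspg2, chr4:137468553-137468768, plus strand: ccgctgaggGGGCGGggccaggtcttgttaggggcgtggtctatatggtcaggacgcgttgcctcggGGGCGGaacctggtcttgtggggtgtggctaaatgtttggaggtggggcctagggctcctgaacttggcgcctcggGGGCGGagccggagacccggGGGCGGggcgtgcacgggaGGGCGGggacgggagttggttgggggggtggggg
Lamb1, chr12:31265043-31265233, plus strand: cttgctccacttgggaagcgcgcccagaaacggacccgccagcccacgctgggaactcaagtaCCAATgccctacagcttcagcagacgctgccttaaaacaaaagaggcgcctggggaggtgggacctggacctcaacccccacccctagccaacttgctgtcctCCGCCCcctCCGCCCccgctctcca
Nid1, chr13:13437352-13437550, plus strand: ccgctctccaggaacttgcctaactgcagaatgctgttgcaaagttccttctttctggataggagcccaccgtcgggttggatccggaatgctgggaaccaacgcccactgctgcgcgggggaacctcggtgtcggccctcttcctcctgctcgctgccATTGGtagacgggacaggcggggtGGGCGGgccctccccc
Lama5, chr2:180225860-180226109, minus strand: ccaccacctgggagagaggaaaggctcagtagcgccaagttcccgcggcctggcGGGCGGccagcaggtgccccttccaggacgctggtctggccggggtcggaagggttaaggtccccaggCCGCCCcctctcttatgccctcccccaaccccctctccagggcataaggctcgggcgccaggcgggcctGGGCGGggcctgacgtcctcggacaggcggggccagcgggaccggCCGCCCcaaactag

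These stretches hold 5 GC boxes for Hspg2, 2 for Lamb1, 1 for Nid1 and 4 for Lama5, and a CCAAT box in Lamb1 and Nid1. In the full windows of 300 bases, GGGCGG was found on either strand in 7 of 8 member windows and in 35.7% of all 32851 windows, and CCAAT in 5 of 8 and in 37.4%. The TATA box TATAAA was in 0 of 8 member windows (13.6% of all), the AP-1 site TGANTCA in 0 (7.81%) and the heat shock element core GAANNTTC in 0 (7.86%). The ETS core CCGGAA was in 1, that of Nid1 (14.9% of all). The 2 windows of Col4a1 and Col4a2 overlap, and Col18a1 has 2, so these windows are not independent.

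The other genes of the basement membrane, from lists chosen with earlier results of these data known, gave no call in limma either. Of 22 tested further components 0 were called higher and 0 lower. The log2 fold change was above 0 in 18 and its median was 0.65. The 3 of lowest p with a mean of at least 50 were Smoc2, which encodes a secreted calcium-binding matrix protein, Fbln2, which encodes a fibulin, and Lama3, an epithelial laminin alpha chain. Smoc2 was measured at 6.94, 6.48 and 4.57 normalised reads without tamoxifen and at 157, 268 and 23.1 with it (log2 fold change 3.87 ± 0.79, SE, limma adjusted p = 0.315). Fbln2 was measured at 220, 154 and 152 and at 1094, 1328 and 322 (2.16 ± 0.47, limma adjusted p = 0.351). In both genes all 3 tamoxifen libraries were above the other group. That held for 4 of the 22, while 13.9% of genes tested had groups that did not overlap in either direction. Lama3 was measured at 57.3, 34.6 and 51.7 and at 242, 212 and 41.4 (1.44 ± 0.61, limma adjusted p = 0.537), with tamoxifen_3 inside the range without tamoxifen. Without tamoxifen_3, 15 of these 22 were called higher, where 7.22% of genes tested were, with Smoc2 at 4.90, Fbln2 at 2.79 and Lama3 at 2.25 on the log2 scale.

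Cell receptors for extracellular matrix, mostly integrins, also had 0 of 18 past the threshold, with 11 positive and a median of 0.06. Ddr2, a collagen receptor of mesenchymal cells, was measured at 32.1, 18.4 and 12.9 normalised reads without tamoxifen and at 263, 333 and 30.9 with it (2.77 ± 0.81, SE, limma adjusted p = 0.462). Itga6, whose integrin binds laminin, was measured at 2633, 2666 and 2036 and at 2083, 1985 and 1908 (-0.29 ± 0.13, limma adjusted p = 0.550). Itgb5 was measured at 1180, 1196 and 1256 and at 823, 927 and 1137 (-0.34 ± 0.13, limma adjusted p = 0.508). For Itgb5 every tamoxifen library was below every library without tamoxifen. Of the 18, 1 was below in this way and 2 were above, against 13.9% of genes tested in either direction. Without tamoxifen_3, 5 of the 18 were called higher and 1 lower, as were 7.22% and 3.48% of all genes tested. Ddr2 was among the higher at 3.84 on the log2 scale and Itgb5 was the 1 lower at -0.47.

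Genes for collagen folding, secretion and crosslinking had 0 of 19 past the threshold, with 16 positive and a median of 0.23. Serpinh1, the collagen chaperone of the endoplasmic reticulum and a known heat shock gene, was measured at 2103, 1627 and 1237 normalised reads without tamoxifen and at 3368, 3596 and 1017 with it (0.51 ± 0.44, SE, limma adjusted p = 0.743). It had the same libraries high and low as collagen IV. The chaperone gene Hspa1b was at 1091 to 1618 without tamoxifen and at 78419, 49427 and 44218 with it. The part of a heat shock response in the level of Serpinh1 was not tested. The lysyl oxidase genes Lox (2.94 ± 0.87) and Loxl1 (3.47 ± 0.95) and the prolyl hydroxylase gene P4ha2 (0.77 ± 0.23) had the lowest p in this list (limma adjusted p = 0.462 each). Without tamoxifen_3, 9 of the 19 were called higher, against 7.22% of genes tested, with Loxl1 at 4.71, Lox at 4.12, Serpinh1 at 1.10 and P4ha2 at 0.91 on the log2 scale. With the mesenchymal covariate, in the fit that rests largely on tamoxifen_3, Lox was at 0.15 and Loxl1 at 0.58, neither past the threshold. Serpinh1 was called lower there at -0.90.

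Proteases of the basement membrane and their inhibitors had 0 of 13 past the threshold, with 9 positive and a median of 0.32. Mmp2, a gelatinase that cleaves collagen IV, was measured at 214, 198 and 148 normalised reads without tamoxifen and at 510, 527 and 173 with it (0.96 ± 0.40, SE, limma adjusted p = 0.537). Adamts1, a secreted metalloprotease gene, was at 0.57 ± 0.32 and the cathepsin gene Ctsl at -0.24 ± 0.14 (limma adjusted p = 0.609 and 0.631). Without tamoxifen_3, 5 of the 13 were called higher, against the same 7.22% of genes tested, with Mmp2 at 1.49 and Adamts1 at 0.93 on the log2 scale.

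In column 10 all 10 members were below every library without tamoxifen, where 29.4% of genes tested were, with Col4a1 at 2460 normalised reads, Hspg2 at 2799 and Lama4 at 345. Cdh5 was at 1097 there and the pan-endothelial score at 8.21, also below every library without tamoxifen. In column 6 the endothelial score was lower still, at 7.88 with Cdh5 at 747, and Csf1r was at 151, while the summed mesenchymal markers reached 451810. Col4a1, Col4a2 and Nid2 were inside the range without tamoxifen at 11502, 7295 and 2248. Col18a1 was below it at 2169. Of all genes tested, 40.9% were above that range in column 6 and 47.8% below it. The part of any cell type in these levels was not tested. The Col4a1 to Col4a2 ratio was 1.58 in column 6, inside the range of the 6 libraries, and 1.50 in column 10, below it. Lama4 to Lama5 was 1.29 in column 6 and 1.86 in column 10, both below all 6.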

How the data were processed

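The deposited table holds normalised read counts per gene symbol, treated as a signal unit. Per the submitters' processing notes, the tools were STAR, HTSeq 0.11.2 and DESeq2 and the builds hg38 and mm10, with no roles given. All deposited values used (100%) were whole multiples of a column's step (tolerance 0.001 reads), so whole reads were recovered for depth and for count tests. The header is 1 field short. Of the value columns, 6 were compared, 2 are shown apart and 1 was not used.

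Tests covered the 13480 genes whose mean over the 6 libraries reached 10 normalised reads. The model, limma 3.58.1 (R 4.3.3), had group alone as its term, on log2(value + 1) with a trend, and p-values were adjusted by Benjamini-Hochberg (threshold 0.05). Fold changes are on that scale. The script was tested on simulated data with the same dispersion in all libraries, which does not cover a library that departs as tamoxifen_3 did. Alternatives were edgeR 4.0.16 and DESeq2 1.42.0 on recovered reads, other pseudocounts, filters, columns and scalings, a covariate, and leaving out each library. Members and lists were chosen with earlier results of these data known. The genes named were all members, the 3 of lowest p per list with a mean of at least 50, Serpinh1, and the 5 nearest to Col4a1 and to Lama4. Gene positions and exons came from GENCODE M21 on GRCm38 (1-based), promoter windows from RefSeq on GRCm38.p6. Older symbols matched 5 list genes.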

Additional observations from a re-analysis of the deposited data

Results flagged for a closer look

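In column 6, which entered no comparison, 6 members stood above every library without tamoxifen, where 40.9% of genes tested did. They were Hspg2 at 19423 normalised reads, Lamc1 at 5338, Nid1 at 4339, Lamb1 at 4325, Lama4 at 2966 and Lama5 at 2303. The highest library without tamoxifen had 11394, 3088, 1653, 1561, 2098 and 296 for the same genes. In the same column the pan-endothelial score was 7.88, below the 9.56 to 10.16 without tamoxifen, and the summed mesenchymal markers were 451810 against 2023 to 4344; their part in these levels was not tested.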

How the results depend on the processing

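No member passed with other pseudocounts, filters, edgeR, DESeq2, other columns, endothelial scaling or the replicate block. Endothelial scaling raised the SE of the members, so it could hardly call one. With the mesenchymal covariate, a fit that rests largely on tamoxifen_3, 9 members were called lower. Leaving out 1 library at a time gave 0 to 6 members called higher, the 6 without tamoxifen_3. Of all genes, 6 were called higher and 0 lower in the reported fit, 242 and 25 by DESeq2, 190 and 0 with endothelial scaling, 140 and 495 with the covariate, 28 and 63 with tamoxifen_3 alone for its group, 8 and 1 with column 10 added, and 0 and 0 with the header over the first 8 columns. Leaving out 1 library gave 2 to 973 higher and 0 to 469 lower. The samples share only a number from table order: same-numbered libraries correlated at 0.195, 0.0364 and 0.345 in their deviations, and tamoxifen_2 correlated best with no_tamoxifen_1 (0.329). With the replicate block 20 genes were called higher and 1 lower.

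Among further components, DESeq2 and endothelial scaling each called 4 higher, the covariate 1 higher and 8 lower, and tamoxifen_3 alone 2 lower, with 0 to 15 higher leaving out 1 library. For receptors the values were 1 higher by DESeq2, 1 higher with endothelial scaling and 2 lower with the covariate, with 0 to 5 higher and 0 to 1 lower leaving out 1 library. For folding genes they were 3 and 2 higher and 3 lower, with 0 to 9 higher, and for proteases 4 lower with the covariate, with 0 to 5 higher.

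Signs turned as follows, on the log2 scale. With the header over the last 8 columns, Col4a1 was -0.404, Col4a2 -0.432, Lama5 -0.413, Lamb1 -0.71, Lamc1 -0.368, Nid1 -0.567, Nid2 -0.152, Hspg2 -0.521, Itga6 0.023, P4ha2 -0.081, Serpinh1 -0.683, Mmp2 -0.45 and Adamts1 -0.353. With column 10 added, Col4a1 was -0.33, Col4a2 -0.349, Lamb1 -0.276, Lamc1 -0.106, Nid1 -0.138, Nid2 -0.102, Hspg2 -0.255 and Serpinh1 -0.025. With the covariate, Col4a1 was -1.036, Col4a2 -1.084, Lamb1 -1.1, Lamc1 -0.682, Nid1 -1.168, Nid2 -0.537, Hspg2 -0.995, Lama3 -0.307, Serpinh1 -0.896, Mmp2 -0.272 and Adamts1 -0.332. With tamoxifen_3 alone (added after seeing the data), Col4a1 was -0.819, Col4a2 -0.868, Lamb1 -0.885, Lamc1 -0.501, Nid1 -0.91, Nid2 -0.402, Hspg2 -0.809, Lama3 -0.174, Serpinh1 -0.669, Mmp2 -0.097, Adamts1 -0.136 and Ctsl 0.013. Lama4 was 0.034 in edgeR, 0.006 in DESeq2 and 0.131 with the first 8 columns.

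Leaving out 1 library moved Col4a1 from -0.073 to 0.714, Col4a2 from -0.155 to 0.646, Lama4 from -0.4 to 0.4, Lamb1 from -0.197 to 0.633, Lamc1 from -0.037 to 0.526, Nid1 from -0.02 to 1.048, Nid2 from -0.029 to 0.425, Hspg2 from -0.086 to 0.759, Col18a1 from -0.385 to 0.257 and the log2 ratio of Lamb1 to Lamc1 from -0.178 to 0.108. Lama5 stayed between 0.467 and 0.952. The cause was not tested. With all 6 libraries the 95% intervals of 9 members span both a fall and a rise; without tamoxifen_3 the SE of Col4a1 on the log2 scale was 0.18 in place of 0.40.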
